A study of Mus musculus with 8 samples.

Results

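Opposite-strand transcripts are RNAs that mouse nomenclature names after a neighbouring gene, the host, with the ending "os" or "os" and a number. They were taken by name: a gene whose name has this ending and whose remaining stem is itself a gene in the table, so that Fos, Mos and Nos1 were left out. The rule gave 298 genes under 295 names (Tmem147os, Dlx6os1 and Nkx2-2os each had 2 entries) out of 55157 genes in the table, beside 253 hosts. All 298 lay on the chromosome of their host and on the other strand, in the GENCODE M21 annotation of mm10, so the names matched their positions.

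The RNA came from type 7-8 follicles, a morphological growth stage, isolated from the ovaries of Kunming mice, an outbred stock, at postnatal day 21. Every animal had received pregnant mare serum gonadotropin (PMSG, which acts like follicle-stimulating hormone) 24 hours earlier, together with normal saline in the control group or with melatonin in the other, with 4 libraries each. Control mice were thus also hormone-primed, and no unprimed group was analysed here. Whether each library is another animal or a pool is not stated in the labels, and the p-values reflect only how far these libraries differ, part of which may be technical.

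Transcripts that start beside a host and run away from it usually come from a promoter that fires in both directions, whereas those that start inside a host or downstream of it run against its messenger RNA. Some of them act on the host in cis, some encode a protein of their own, and many are short-lived because the nuclear exosome removes them. In the ovary, Foxl2 and Wt1, transcription factors of granulosa cells, are hosts of such transcripts.

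Of the 298 transcripts, 255 were annotated as antisense RNAs, 13 as processed transcripts, 11 as long intergenic RNAs and 11 as protein coding, with 8 of other kinds. The start lay within 1 kb of the host's start in 73 and within 5 kb in another 41. A further 121 lay wholly inside the host's body with a start at a greater distance, 46 overlapped the host in another way, and 17 lay apart from it. Some hosts carried several: 33 had more than 1 transcript, and Sox5 had 5.

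Among the 20 of the 73 close pairs with a mean of 1 FPKM or more (a level that corrects the fragment number for exon length and library size), 9 were divergent, with DNA between the outermost starts of transcript and host that belongs to neither gene. The outermost start is the more upstream of those annotated in GENCODE M21 and RefSeq; for Fam120a it is the RefSeq one. Of these stretches, 4 are shown, for pairs described below whose stretch holds a motif marked here in capitals. Each is written 5′ to 3′ on the host's strand, so that the transcript runs off to the left and the host to the right. Sequences are from RefSeq promoter windows of GRCm38.p6. Capitals mark the GC box (GGGCGG, bound by Sp factors) and the CCAAT box (CCAAT, bound by NF-Y), on either strand. The TATA box (TATAAA) was also searched, and overlapping matches count for each motif.

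Brip1os to Brip1, chr11:86201194-86201369, minus strand: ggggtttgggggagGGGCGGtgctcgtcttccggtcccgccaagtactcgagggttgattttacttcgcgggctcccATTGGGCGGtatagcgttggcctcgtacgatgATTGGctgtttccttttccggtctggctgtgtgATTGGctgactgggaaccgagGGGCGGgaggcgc
Plekhd1os to Plekhd1, chr12:80692467-80692590, plus strand: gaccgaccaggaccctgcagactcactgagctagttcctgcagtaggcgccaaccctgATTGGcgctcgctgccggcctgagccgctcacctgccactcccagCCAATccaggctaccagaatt
Med9os to Med9, chr11:59948148-59948205, plus strand: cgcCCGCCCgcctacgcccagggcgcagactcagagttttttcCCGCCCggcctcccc
Fam120aos to Fam120a, chr13:48968061-48968111, minus strand: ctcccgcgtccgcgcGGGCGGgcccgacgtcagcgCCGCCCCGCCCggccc

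The Brip1 stretch of 176 bases held 3 GC boxes and 3 CCAAT boxes, with a CCAAT box that runs into a GC box. A GC box occurs in 30% and a CCAAT box in 27.1% of stretches of that length directly before all RefSeq starts. Plekhd1os and Plekhd1 shared 124 bases with 2 CCAAT boxes and no GC box. In contrast, the 58 bases of Med9os and the 51 bases of Fam120aos had 2 and 3 GC boxes, against 18.2% and 16.4% of all stretches of those lengths with any. Of the 9 divergent pairs, 8 had at least 30 bases between starts (38 to 176), of which 4 held a GC box, 2 a CCAAT box and 0 a TATA box. The ninth, Wt1os, had 18 bases to Wt1. The stretches of B9d1os (57 bases) and Tmem147os (38 bases), also described below, held none of these motifs and are not shown. Over whole windows of 300 bases (250 before to 50 after the start), a GC box was found in 54.1% of the 61 windows of transcripts that start within 1 kb of the host. The share was 18.3% for 153 windows of other opposite-strand transcripts, 50.7% for 290 windows of hosts and 35.7% for all 32851 windows; 179 transcripts and 203 hosts were matched by symbol. The sets also differ in base composition, with a median GC content of 60.7%, 51.3%, 59.7% and 52.7% in the same order. Its part in these shares was not tested. Windows of starts within 1 kb of the host can also overlap those of the host. The motif matches describe the letters in the windows and show no binding.

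How fragments over shared exons were counted bears on each of these genes. The library kit that the labels name does not mark strand, so a fragment cannot be assigned to either strand where exons of both strands overlap. Of 454 annotated genes whose exon bases all lie under exons of the other strand, 450 (99.1%) were listed at 0 in all 8 libraries, compared with 41.2% of the 42753 genes that share none. The share at 0 was 66.2% where at least 90% but not all bases were shared and 28.2% between 50% and 90%. The level of a transcript here therefore rests on the exon bases that it does not share, while the FPKM divides by its full exon length. Of the 298, 180 shared exon bases with another gene (163 with the host) and 31 shared at least 50% of them. Where the unshared bases lie in introns of the host, as for every transcript wholly inside one, unspliced host RNA and the opposite-strand RNA cannot be told apart in these libraries.

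Most opposite-strand transcripts were scarce. Of 298 transcripts, 54 reached an average of 1 FPKM, 98 lay between 0.1 and 1 FPKM, 108 were above 0 but below 0.1, and 38 were at 0 in all libraries. The median transcript had 0.121 FPKM and the median host 1.65 FPKM, and 145 of 253 hosts reached 1 FPKM. The 54 passed a filter on level, so they are the expressed part and not all of the transcripts. Over the 8 libraries together they had a median of 651 fragments, and the lowest, Sox5os5, had 38. In the 298 pairs, mean levels of transcript and host were ranked alike, with a Spearman coefficient of 0.7, given as a description because all pairs share the 8 libraries and nearby DNA. Among the 47 pairs with both genes at 1 FPKM or more it was 0.26.

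**Figure D1:**
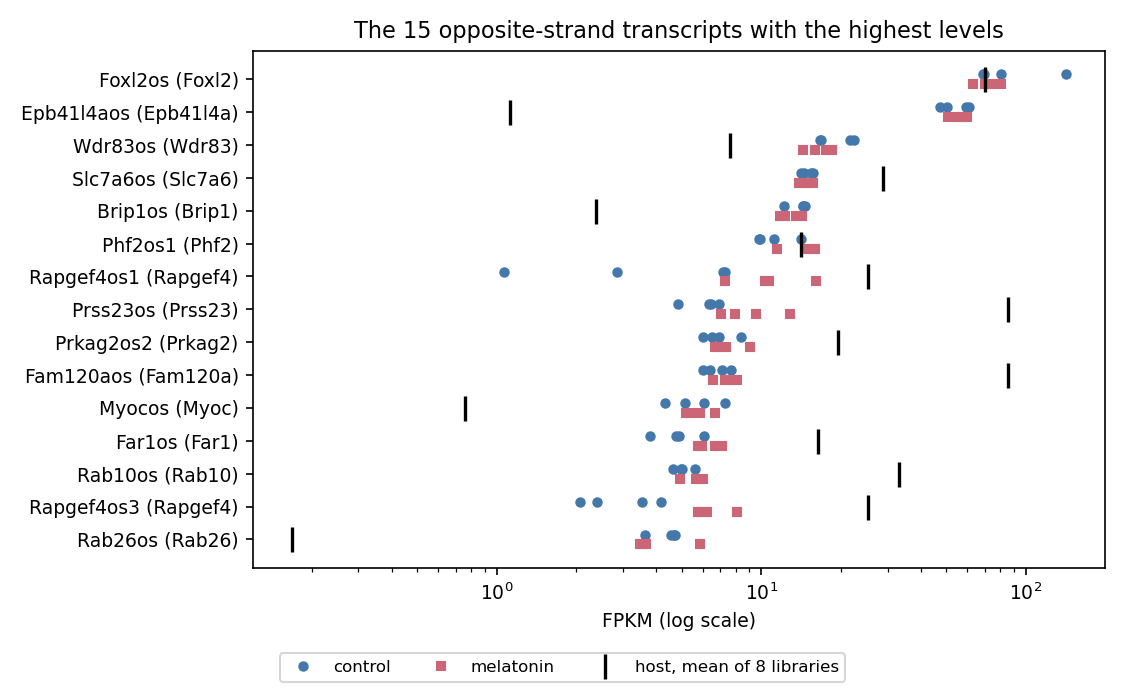
FPKM on a log scale for the 15 opposite-strand transcripts with the highest mean, with the host named in parentheses; circles are control libraries, squares melatonin libraries, and black bars the host's mean over 8 libraries. Foxl2os leads at a level like that of Foxl2, and 6 of the 15 (Foxl2os, Epb41l4aos, Wdr83os, Brip1os, Myocos and Rab26os) lie above their host.

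The highest was Foxl2os (chr9:98949781-98955299), a processed transcript whose start overlaps that of Foxl2 by 12 exon bases. Its levels were 80.3, 69.2, 142 and 69.0 FPKM in the control libraries and 70.1, 63.2, 80.4 and 74.1 FPKM in the melatonin libraries. Foxl2, the forkhead factor that maintains granulosa cell identity, had 80.7, 67.8, 110.7 and 55.2 FPKM in control and 58.1, 58.0, 70.6 and 59.1 FPKM in melatonin. Control 3 was the highest control and melatonin 3 the highest melatonin library for both genes, and the groups overlapped. The log2 fold change, on log2(FPKM + 1) as throughout, was -0.26 (SE 0.216, adjusted p = 0.535, limma) for Foxl2os and -0.31 (SE 0.188, adjusted p = 0.403, limma) for Foxl2. Without control 3 these values were -0.02 and -0.13.

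Epb41l4aos (chr18:33794892-33795986) had 54.4 ± 6.75 FPKM in control libraries and 55.9 ± 3.88 FPKM with melatonin (SD, n = 4 each). Its named host Epb41l4a, a member of the band 4.1 family of membrane skeleton proteins, had a mean of 1.12 FPKM, and the starts were 212074 bases apart. Wdr83os, which encodes a protein of the endoplasmic reticulum, had 19.3 ± 3.05 and 16.6 ± 1.79 FPKM. It shared 52.3% of its exon bases, 539 of them with Wdr83, and its mean of 17.96 FPKM would be 37.6 per kilobase of unshared exon. Slc7a6os, another protein-coding gene, had 14.9 ± 0.745 and 14.8 ± 0.739 FPKM, below the amino acid transporter gene Slc7a6 at 28.9 FPKM.

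Brip1os (chr11:86201370-86304443), which departs from the CCAAT- and GC-box stretch shown above, had a mean of 13.4 FPKM, compared with 2.37 FPKM for Brip1, a DNA helicase of the Fanconi anaemia pathway. The values of Brip1os ran from 12.2 to 14.6 FPKM in control and from 11.7 to 14.2 FPKM in melatonin, with overlap. Rab26os was at 4.27 FPKM and lay wholly inside Rab26, a small GTPase gene of vesicle traffic, which was at 0.168 FPKM. Myocos, a protein-coding gene that overlaps the myocilin gene Myoc, was at 5.73 FPKM and Myoc at 0.761 FPKM. Of the 54 transcripts, 13 exceeded their host; in the other direction, the median host was 3.89 times its transcript.

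Some high hosts had a scarce partner. Jun, an immediate early transcription factor gene, had a mean of 228 FPKM while Junos, which starts within 1 kb of it, had 0.291 FPKM. Scpep1 had 129 FPKM and Scpep1os 0.705 FPKM. These were picked after their values were seen. Of the 244 transcripts below 1 FPKM, 122 had a host at 1 FPKM or more and 122 had a host below it.

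The design's single comparison asks how melatonin given with PMSG alters follicular RNA. No transcript, host or other gene passed an adjusted p of 0.05 (0 of 14738 genes that averaged 1 FPKM or more, 0%; limma), so the differences that follow are described by their values and the overlap of groups. At an unadjusted p of 0.05, 15 transcripts were higher with melatonin and 2 lower, where 9.4% of all tested genes were higher and 9.74% lower. Without melatonin 1, 6 transcripts were higher and 1 lower, and without melatonin 3 the counts were 14 and 0. Over all 14738 tested genes the counts were 1385 and 1436 with every library. They were 962 and 961 without melatonin 1, and 1266 and 1464 without melatonin 3. The lowest adjusted p of a transcript was 0.12 (limma). The 4 melatonin libraries lay above all 4 controls in 9 of 54 transcripts and below them in 1; over all tested genes these shares were 5.79% and 5.94%. Higher in every melatonin library were Rapgef4os3, Sp3os, Wt1os, Prss23os, Ino80dos, Dtnbos, Lppos, Mypopos and Cdiptos, and lower was Med9os.

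The log2 fold change was positive in 38 and negative in 16 of the 54, with a median of 0.11 (0.065 without control 3), against 47.5% positive and a median of -0.01 over all tested genes. The 355 other tested genes annotated as antisense had 74.6% positive and a median of 0.13, with groups apart in 31 that were higher and 0 that were lower. For the 145 tested hosts, 70 were positive and 75 negative, the median was -0.01, and the groups did not overlap in 9 that were higher and 5 that were lower. Library composition moved with the groups: the Spearman coefficient across genes between GC content and each library's deviation from the mean lay between -0.024 and 0.261 for controls and between -0.182 and -0.121 for melatonin. For exon length it lay between -0.107 and -0.048 and between 0.024 and 0.115. The transcripts are short, with a median exon length of 1491 bases against 3675 for all tested genes. After both trends were removed from each library, 44 were positive and 10 negative, with a median of 0.13.

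By position, the 17 tested transcripts wholly inside the host had 13 positive values, a median of 0.25, 8 at an unadjusted p of 0.05 (all higher) and 4 with groups apart, all higher, against 9.4% and 5.79% of all tested genes. Without melatonin 1 the 8 became 3, and without melatonin 3 the 4 became 7. Over all 14738 tested genes, those higher at that p went from 1385 to 962 without melatonin 1. Those apart and higher went from 853 to 1330 without melatonin 3. The 20 that start within 1 kb of the host's start had 11 positive and 9 negative values, a median of 0.07 and groups apart in 3 higher and 1 lower. The 7 protein-coding ones had a median of 0.03, and the 16 that share no exon base a median of 0.04. Of the 40 transcripts with transcription factor hosts, 6 were tested, 3 with positive and 3 with negative values. The difference between these classes was not tested.

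The largest log2 fold change among the 54 was that of Rapgef4os1. The host Rapgef4 encodes EPAC2, an exchange factor for the small GTPase Rap that cAMP activates, and cAMP is the messenger made when the receptor for follicle-stimulating hormone is engaged. Rapgef4 levels were 21.3, 23.4, 11.1 and 14.2 FPKM in control and 38.6, 37.3, 24.7 and 30.8 FPKM in melatonin libraries. The groups did not overlap (log2 fold change 0.91, SE 0.235, adjusted p = 0.145, limma).

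Rapgef4os3 (chr2:72244965-72248975), inside the host and sharing no exon base with any gene, followed the same order of groups with 3.54, 4.18, 2.06 and 2.4 FPKM against 8.09, 6.21, 5.75 and 5.82 FPKM. Its groups did not overlap (log2 fold change 0.91, SE 0.177, adjusted p = 0.12, limma). The fragments behind it numbered 843 in control and 1937 in melatonin libraries. Rapgef4os1 (chr2:72097603-72148796), which also shares no exon base, had 7.13, 7.28, 1.07 and 2.85 FPKM in control and 16.1, 10.7, 7.27 and 10.3 FPKM in melatonin. The groups touched, since control 2 and melatonin 3 were nearly equal (log2 fold change 1.28, SE 0.444, adjusted p = 0.188, limma). Without control 3 this value was 0.88.

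Rapgef4os2 (chr2:72224688-72232302) shares 337 exon bases with the host and was lower, at 1.46, 1.68, 0.622 and 0.987 FPKM in control and 2.06, 2.15, 1.55 and 2.09 FPKM in melatonin (log2 fold change 0.46, SE 0.165, adjusted p = 0.199, limma). In all 4 genes control 3 was the lowest library and control 4 the next, and melatonin 3 the lowest of its group. All exon bases of os1 and os3 lie in introns of Rapgef4, as do 84.1% of those of os2, so in these unstranded libraries the share of unspliced Rapgef4 RNA in their levels was not tested. Within 500 kb, the 7 other tested genes overlapped between groups. Among them Pdk1, a kinase that holds back pyruvate dehydrogenase, was at 5.61 ± 0.546 and 6.83 ± 0.892 FPKM, and Map3k20 at 3.56 ± 0.252 and 3.38 ± 0.368 FPKM (SD, n = 4). Without the 3 Rapgef4 transcripts the median of the remaining 51 was 0.10.

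**Figure D2:**
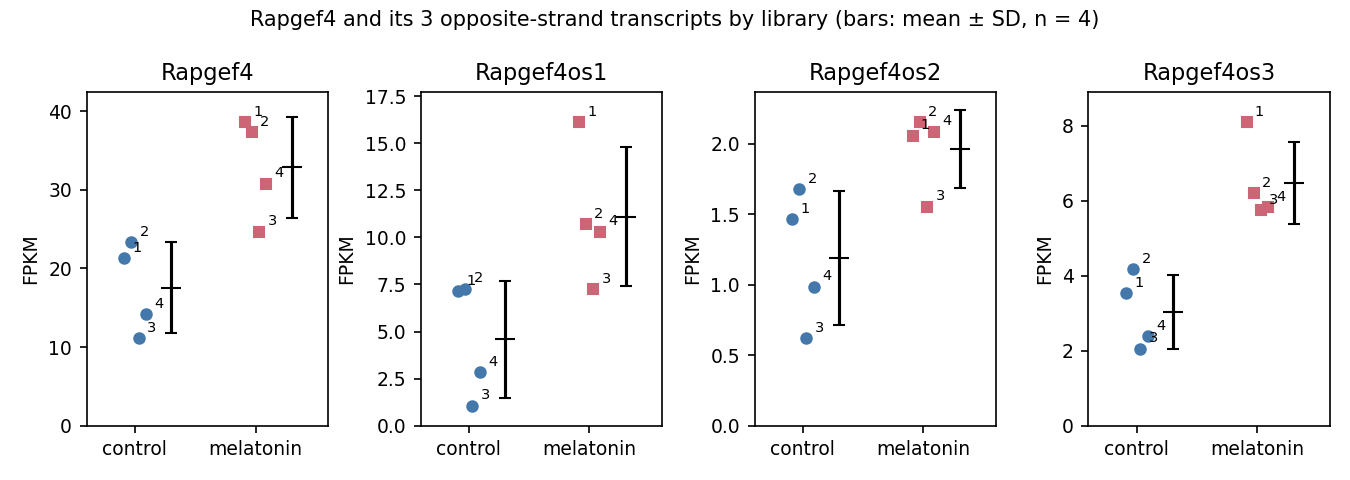
FPKM of Rapgef4 and its 3 opposite-strand transcripts, with each library as a point marked by its replicate number and the mean ± SD (n = 4) as a bar. All 4 genes have higher means with melatonin, from 17.5 to 32.9 FPKM in Rapgef4 and from 3.04 to 6.47 FPKM in Rapgef4os3, and control 3 is the lowest point in each panel.

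**Figure D3:**
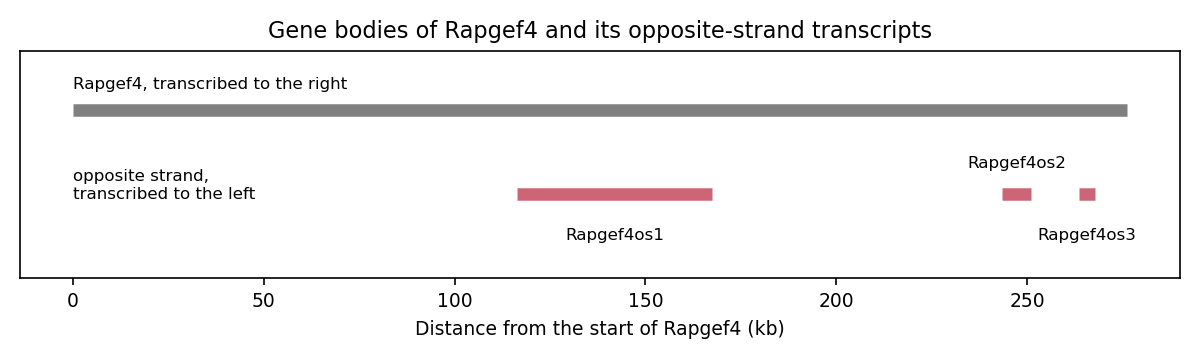
Gene bodies of Rapgef4 (grey) and its opposite-strand transcripts (red) by distance in kb from the start of Rapgef4. All 3 lie inside the host body, os1 in the middle and os2 and os3 near its far end.

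Wt1os (chr2:105076538-105126510) starts beside Wt1, a zinc finger factor of granulosa cells in growing follicles, and runs away from it. Its levels were 2.14, 2.21, 1.86 and 2.4 FPKM in control and 3.65, 2.72, 2.84 and 3.45 FPKM in melatonin, without overlap (log2 fold change 0.40, SE 0.098, adjusted p = 0.138, limma). Wt1 itself had 13.0, 17.2, 13.2 and 17.5 FPKM in control and 20.0, 17.2, 17.4 and 16.8 FPKM in melatonin, which overlapped (0.22, SE 0.108, adjusted p = 0.298, limma). Thus the groups were apart for the transcript and overlapped for the host. Both log2 fold changes were positive, and the ratio of transcript to host, given below, overlapped between groups. Wt1 and Foxl2 belong to 8 granulosa marker genes whose summed level was 6940 to 8700 FPKM in control and 5920 to 6580 FPKM in melatonin; none of the 8 was below 1 FPKM. Most of that sum is Inha, the inhibin alpha gene, whose mean was 6597 FPKM among controls and 5445 FPKM with melatonin. Means were lower with melatonin in 6 of the 8 and higher in Wt1 and in Nr5a2 (170.5 and 180.6 FPKM); groups were apart for Inha and Hsd17b1, both lower, and overlapped for the other 6. In whole follicles, fewer granulosa cells and less RNA per cell cannot be told apart.

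Sp3os (chr2:72979424-72988677) starts 1022 bases inside Sp3, the gene of a zinc finger factor that binds GC boxes. It had 3.42, 3.73, 3.46 and 3.21 FPKM in control and 4.69, 5.42, 4.83 and 4.21 FPKM in melatonin (log2 fold change 0.38, SE 0.076, adjusted p = 0.12, limma). Every melatonin value lay above every control value. Sp3 was at 17.2 ± 1.63 and 17.1 ± 0.288 FPKM (SD, n = 4; log2 fold change -0.01).

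Prss23os (chr7:89510007-89511873) lies inside Prss23, the gene of a secreted serine protease, and shares 864 of its 1592 exon bases with it. Its levels of 6.34, 6.44, 4.85 and 6.90 FPKM in control compared with 7.01, 9.54, 7.96 and 12.8 FPKM in melatonin, without overlap (0.51, SE 0.169, adjusted p = 0.176, limma). Prss23 overlapped between groups, at 80.1 ± 10.4 and 91.3 ± 21.3 FPKM (SD, n = 4). In each group the library highest for the transcript, control 4 and melatonin 4, was also highest for the host.

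In several pairs both genes leaned the same way. Ino80d, a subunit of the INO80 chromatin remodeller, had 5.57 ± 0.273 and 6.62 ± 0.0921 FPKM with no overlap, and Ino80dos 1.71 ± 0.380 and 2.44 ± 0.156 FPKM with no overlap (log2 fold changes 0.22 and 0.36). Far1, which makes fatty alcohols for ether lipids, and Far1os had values of 0.35 and 0.34, with overlap in both. Dtnbos, in an intron of the dystrobrevin gene Dtnb, had 1.31 ± 0.0694 FPKM in control and 1.76 ± 0.104 FPKM in melatonin without overlap, while Dtnb overlapped (0.25 and 0.22). Lppos and Lpp, a LIM domain protein of cell adhesions, were both without overlap (0.33 and 0.14). A different case was Phf2os1, which starts 7 bases inside the histone demethylase gene Phf2. It had 11.2 ± 2.02 and 14.5 ± 2.08 FPKM with overlap (log2 fold change 0.345), while Phf2 was nearly unchanged at 0.02 (SE 0.063).

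Med9os and Med9 were both lower in every melatonin library. Med9, a subunit of the Mediator complex, had 25.7, 25.9, 28.7 and 28.9 FPKM in control and 22.8, 23.6, 20.1 and 22.9 FPKM in melatonin, without overlap (log2 fold change -0.28, SE 0.065, adjusted p = 0.127, limma). Med9os had 1.80, 1.63, 1.90 and 1.64 FPKM in control and 1.52, 1.32, 0.818 and 0.624 FPKM in melatonin, also without overlap (-0.42, SE 0.148, adjusted p = 0.19, limma), from 75 and 49 fragments. Plekhd1os and Plekhd1 leaned the same way at -0.47 and -0.40, with overlap in both. For B9d1os, beside a gene of the ciliary transition zone, the value of -0.34 came mainly with control 3 at 5.72 FPKM and was -0.09 without it.

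Other tested transcripts were picked after their values were seen. Chrna1os (chr2:73584850-73589208) was measured beside a host near 0: the muscle acetylcholine receptor gene Chrna1 had at most 0.0246 FPKM in any library. Chrna1os had 2.28, 2.21, 0.0647 and 0.583 FPKM in control and 3.62, 2.25, 3.84 and 2.01 FPKM in melatonin. Control 3 and control 4 were again its lowest libraries, the groups overlapped, and the log2 fold change was 0.91 (SE 0.372, adjusted p = 0.239, limma). Tmem147os, by its only tested entry, had 3.69 ± 0.247 and 4.72 ± 0.954 FPKM. Tnk2os had 1.53 ± 0.324 and 2.29 ± 0.505 FPKM (SD, n = 4), and groups overlapped in both.

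In some pairs the host's groups were apart while those of the transcript overlapped; the difference between the 2 was not tested. Alkbh3, the gene of a nucleic acid demethylase, had 11.9 ± 1.99 FPKM in control and 16.8 ± 3.04 FPKM in melatonin with groups apart (log2 fold change 0.47, adjusted p = 0.156, limma), while Alkbh3os1 overlapped at 2.66 ± 0.343 and 3.13 ± 0.273 FPKM. Lrp8, a lipoprotein receptor that binds reelin, had 4.12 ± 0.972 and 1.83 ± 0.957 FPKM, also apart (-0.90, SE 0.246, adjusted p = 0.147, limma). Its most abundant transcript, Lrp8os2, was at 0.116 FPKM over the 8 libraries. These are the groups' means ± SD (n = 4), and the 2 hosts were picked after their values were seen.

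The remaining named transcripts differed little between groups relative to their spread. Prkag2os2 and Prkag2os1, inside the gene of an AMP-activated kinase subunit, had values of 0.11 and -0.27 with adjusted p = 0.624 and 0.519 (limma). Fam120aos was at 0.10, Rab10os at 0.12, Rab26os at -0.09, Nckap5los at -0.07, Brip1os at -0.10 and Wdr83os at -0.20. Slc7a6os at -0.01, Epb41l4aos at 0.04 and Myocos at 0.03 were nearest to 0. All of these overlapped between groups.

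**Figure D4:**
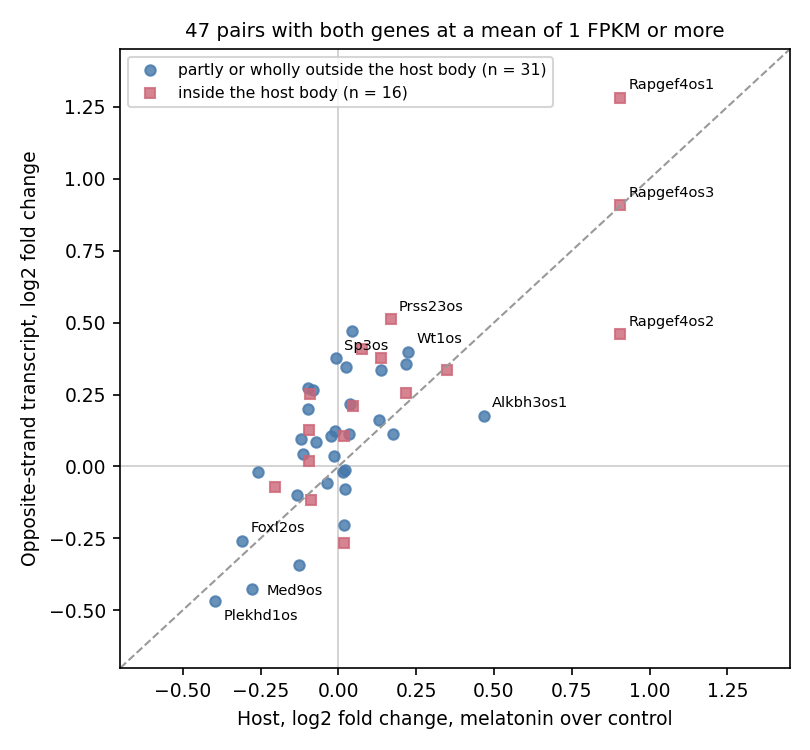
Log2 fold change (melatonin over control) of each opposite-strand transcript against that of its host, for the 47 pairs in which both have a mean of at least 1 FPKM; squares are transcripts inside the host body, circles the others, and the dashed line marks equal values. The Rapgef4 transcripts stand apart at the upper right, and 33 points lie above the line and 14 below it.

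The ratio of transcript to host asks whether the pair moved alike. It was taken in each library as log2 of (transcript + 0.1 FPKM) over (host + 0.1 FPKM), for the 47 pairs with both genes at 1 FPKM or more. The ratio was higher with melatonin in 34 pairs and lower in 13, with a median difference of 0.14. Groups did not overlap in 4 pairs that were higher and 0 that were lower. For comparison, 1612 pairs of neighbouring genes on opposite strands with starts within 5 kb were taken. Their ratio of the lower to the higher gene was apart in 7.82% upwards and 2.17% downwards. The 4 of 47 is near that upward share, but the measures differ. The 47 ratios put the transcript over the host whichever is higher, and some of their starts lie more than 5 kb apart. Over those 1612 neighbour pairs, the ratio was higher with melatonin in 939 and lower in 673, with a median difference of 0.047. Fold changes of the 47 pairs were ranked with a Spearman coefficient of 0.71, a description over pairs that share all 8 libraries. Some hosts, Rapgef4, Prkag2 and Ube4b, enter it more than once, and no such coefficient is given for the neighbour pairs. Of the 47 pairs, 29 had the same sign in transcript and host. In 13 the transcript was positive and the host negative, and in 5 the reverse.

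Prss23os to Prss23 was the tightest of the 4. Its log2 ratio was -3.67, -3.67, -3.73 and -3.69 in control and -3.32, -3.29, -3.32 and -3.21 in melatonin, a difference of 0.40 with SDs of 0.027 and 0.049. For Sp3os the mean log2 ratio was -2.28 ± 0.118 in control and -1.82 ± 0.144 in melatonin (SD, n = 4). Cdiptos, beside the phosphatidylinositol synthase gene Cdipt, had -4.75 ± 0.187 and -4.33 ± 0.103, and Appbp2os had -4.06 ± 0.244 and -3.76 ± 0.107. Each of the 4 had 0.0286, the smallest p that a two-sided exact permutation test over 70 assignments can give, before any adjustment over 47 pairs. Groups of this size that do not overlap always give this p, so it adds nothing to the separation by which the 4 were picked. All 4 pairs share exon bases (109 to 864). None of the 17 pairs without shared exons was apart, and in these the median difference was also 0.14.

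In the Rapgef4 locus the ratios overlapped between groups. The log2 ratio of Rapgef4os1 to its host was -2.20 ± 0.780 in control, where control 3 was lowest at -3.27, and -1.59 ± 0.245 in melatonin, a difference of 0.605 (exact permutation p = 0.257). The log2 ratio of Rapgef4os3 to Rapgef4 was -2.48 ± 0.077 in control and -2.32 ± 0.207 in melatonin, with overlap (exact permutation p = 0.257). That of Rapgef4os2 was -3.80 ± 0.113 and -3.99 ± 0.153 (exact permutation p = 0.114). For Wt1os the ratio was -2.76 ± 0.150 and -2.47 ± 0.164, with overlap (exact permutation p = 0.0857), and for Foxl2os 0.174 ± 0.190 and 0.226 ± 0.089 (exact permutation p = 0.629). These p-values were not adjusted over the 47 pairs.

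**Figure D5:**
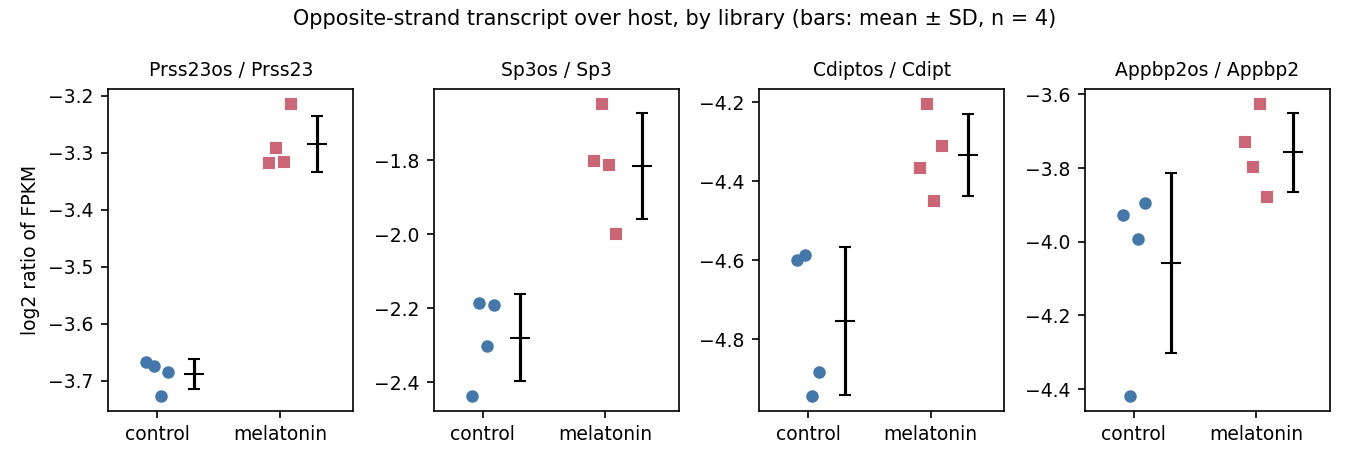
Log2 ratio of opposite-strand transcript to host FPKM (each with 0.1 added) by library for the 4 pairs in which the groups do not overlap; points are libraries, bars the mean ± SD (n = 4). Prss23os over Prss23 lies between -3.73 and -3.67 in control and between -3.32 and -3.21 in melatonin libraries.

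Below 1 FPKM, counts were small. With the filter lowered to 0.1 FPKM and 0.1 added before the log, 152 transcripts were tested among 24155 genes, and 0 of the 152 passed an adjusted p of 0.05 (3 genes did, 0.0124%; limma), with 25 higher and 5 lower at an unadjusted p of 0.05 (7.48% and 6.85% of all). Groups were apart in 15 higher and 4 lower, where all genes gave 4.66% and 4.16%. The additional ones that were higher were Ift88os, Sox5os4, Tvp23bos, Prox2os, Dio3os and Aknaos, and those that were lower were Tbx3os2, Lyrm7os and Kcnab3os. Dio3os, beside the imprinted gene of the enzyme that inactivates thyroid hormone, had 0.203 ± 0.0296 FPKM in control and 0.414 ± 0.156 FPKM in melatonin, from 28 and 59 fragments. Tbx3os2, beside a T-box factor gene, had 0.694 ± 0.0330 and 0.360 ± 0.206 FPKM, from 76 and 42 fragments. Sox5os4 rested on 12 and 37 fragments and Kcnab3os on 13 and 2.

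Factors of nuclear RNA surveillance and processing were taken as a list of 50 genes: the nuclear exosome and its adaptors, cap-binding and U1 proteins, cleavage factors and Integrator subunits. Of these, 49 were tested, 19 positive and 30 negative, with a median of -0.02. At an unadjusted p of 0.05, 4 were higher and 6 lower, and groups were apart in 3 higher and 2 lower. These counts are near the shares over all tested genes (9.4% and 9.74% at that p, 5.79% and 5.94% apart). With a library left out, 3 to 7 were higher and 3 to 7 lower at that p (7 higher without control 4, 3 lower without melatonin 4). Groups were then apart in 3 to 6 higher and 2 to 11 lower (11 without melatonin 3). Over all 14738 tested genes, 1636 were higher at that p without control 4, against 1385 with every library. Without melatonin 3, 1502 of them were apart and lower, against 875. Zcchc7, the RNA-binding partner in the complex that feeds nuclear RNA to the exosome, had 13.0, 11.2, 10.5 and 9.79 FPKM in control and 16.1, 16.0, 14.6 and 15.6 FPKM in melatonin (log2 fold change 0.45, SE 0.081, adjusted p = 0.12, limma). Zfc3h1, which links polyadenylated nuclear RNA to the exosome, had 16.6 ± 2.25 and 21.2 ± 1.24 FPKM, and its partner Pabpn1 had 67.3 ± 2.23 and 74.8 ± 3.06 FPKM. Lower were the exosome subunit Exosc2, between 11.7 and 12.5 FPKM in control and between 9.75 and 11.3 FPKM in melatonin, and the U1 protein Snrpc, at 9.37 ± 0.178 and 8.14 ± 0.619 FPKM; the cleavage factor Cpsf2 overlapped, at 12.8 ± 0.498 and 11.4 ± 0.715 FPKM (SD, n = 4).

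Across the series, the FPKM values imply between 17451111 and 22034312 assigned fragments per control library and between 18553187 and 23649205 per melatonin library. Markers of the 2 cell types that define a follicle were present, with 8 of 8 oocyte genes at a summed 265 to 426 FPKM in control and 252 to 337 FPKM in melatonin. Theca genes summed to 969 to 1320 FPKM in control and 604 to 1170 FPKM in melatonin. Most of that sum is Hsd3b1, with means of 1038 and 833.6 FPKM. Means were lower with melatonin in Hsd3b1, Cyp17a1, Cyp11a1, Star and Insl3 and higher in Ptch1 (12.2 and 13.7 FPKM). All 6 theca genes overlapped between groups. Stroma genes summed to 27.0 to 60.3 and 18.2 to 35.5 FPKM, and leukocyte genes to 7.96 to 23.8 and 5.72 to 11.7 FPKM. The part of these cell types in the differences described above was not tested.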

How the data were processed

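RNA sequencing of 8 libraries was used. Alignment by the authors used HISAT2 2.0.5 and the mm10 build, according to the submitters' processing notes. Which tool counted fragments, with what annotation and strand setting, is not given in the sources used here. Total RNA went into a NEBNext Ultra library preparation, per the labels' protocols. The deposited values are FPKM per gene. The series table and the sample files differed in 0 cells.

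Positions, exon lengths and overlaps came from GENCODE M21, which matched 54495 of 55157 identifiers. FPKM multiplied by exon length gave whole fragments within 0.05 for 98.82% of values up to 30 fragments, and for 297 of the 298 transcripts; on chromosomes 17, 18 and 19, 11.07%, 32.37% and 32.51% of genes did not come out whole, so depth and fragment numbers are estimates. Intervals for counting error are not given, because fragments without molecular identifiers are not independent molecules.

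Genes averaging 1 FPKM or more were tested with limma 3.58.1 (R 4.3.3), with an intensity trend on log2(FPKM + 1), which understates changes of low genes. Group was the single term, and Benjamini-Hochberg adjustment ran over all 14738 genes. The test was also run on simulated counts with equal dispersion for all genes and no GC or length trends. That simulation does not cover the trends seen in these libraries. For ratios, the exact permutation test was two-sided. Tables and plots used Python 3.11.15, pandas 2.3.3, scipy 1.17.1 and matplotlib 3.10.9.

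The members and lists were chosen with earlier results of these data known. Named are the 15 transcripts with the highest mean, the 8 tested ones with the smallest p in each direction, Foxl2os and Wt1os, their hosts, 3 surveillance genes per direction, and other antisense RNAs at 1 FPKM; Junos, Scpep1os, Lppos, Mypopos, Cdiptos, Appbp2os, Rapgef4os2, Chrna1os, Tmem147os, Tnk2os, Alkbh3os1, Lrp8 and the transcripts below 1 FPKM were picked after their values were seen. Replicate numbers did not pair the libraries: deviations of same-numbered libraries correlated at 0.001, -0.103, 0.151 and 0.038. Alternatives were other filters and pseudocounts, quantile normalization, limma-voom on recovered fragments, removal of GC and length trends (splines with 5 degrees of freedom), a replicate block and each library left out; leaving out Rapgef4 was added after the data were seen.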

Additional observations from a re-analysis of the deposited data

Results flagged for a closer look

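In 6 of 92 groups of 4 libraries (named transcripts and their hosts, by group), the highest or lowest library lay far from the other three, with a gap to the nearest of them beyond Dixon's 95% limit; chance gives about 1 in 20 such groups. Control 3 was high for Foxl2os at 142 FPKM and low for Brip1os at 12.2 FPKM. Control 1 was low for Rab26os at 3.62 FPKM, and melatonin 4 was high for it at 5.86 FPKM. Melatonin 3 was high for Foxl2 at 70.6 FPKM, and melatonin 4 was high for Prkag2 at 22.2 FPKM.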

How the results depend on the processing

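The gene test called 0 genes. It called 1 with a filter of 0.1 FPKM, 1 with no filter, 3 with a filter and pseudocount of 0.1, 3 with limma-voom and 0 to 1 with a library left out (1 without control 1). At an unadjusted p of 0.05, 789 of 8855 genes were higher at a filter of 5 FPKM. With limma-voom 2198 of 24905 were, against 1385 of 14738 in the main test.

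The number tested changes with the filter, so counts are given with it. Transcripts with groups apart and higher numbered 15 of 152 at a filter of 0.1 (15 with a pseudocount of 0.1 too). They numbered 16 of 260 with no filter, 1 of 13 at a filter of 5 and 17 of 182 with limma-voom. Of 54, they numbered 5 after quantile normalization and 9 to 16 with a library left out (14 without control 4, 16 without melatonin 3). Those lower numbered 4, 4, 4, 0 and 4 at the same settings up to limma-voom, and 1 to 2 with a library left out (2 without control 2, control 3 or melatonin 2). Their median was 0.217 with limma-voom, 0.023 with no filter, 0.174 with a filter and pseudocount of 0.1, 0.039 for those sharing no exon base, and 0.065 to 0.147 with a library left out (0.065 without control 3). At an unadjusted p of 0.05, 6 to 14 were higher with a library left out (6 without melatonin 1) and 0 to 2 lower (0 without melatonin 3, and 1 without control 3, control 4 or melatonin 1). With a library left out, all 14738 tested genes gave 962 to 1636 higher at that p, against 1385 with every library. They gave 1006 to 1546 apart and higher, against 853, and 1017 to 1502 apart and lower, against 875. At the other settings, all genes gave 1125 of 24155 apart and higher at a filter of 0.1 and 1197 of 34898 with no filter. The counts were 468 of 8855 at a filter of 5, 1353 of 24905 with limma-voom and 813 of 14738 after quantile normalization. Apart and lower were 1006, 1076, 753, 771 and 694 in the same order.

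Hosts apart and higher numbered 5 of 83 at a filter of 5 and 14 of 219 with limma-voom. With a library left out they numbered 9 to 14 of 145 (14 without control 1 or control 4). Those lower numbered 11 of 201 at a filter of 0.1 (either pseudocount), 11 of 239 with no filter and 8 of 219 with limma-voom. Of 145, they numbered 8 after GC and length removal and 9 after quantile normalization. With a library left out they numbered 5 to 12 (12 without control 4). The hosts' median turned to 0.009 at a filter of 5 and ran from -0.011 to 0.002 with a library left out (0.002 without control 1).

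Ratios apart and higher numbered 10 of 148 pairs at a filter of 0.1 and 0 of 17 without shared exons. With a library left out they numbered 4 to 10 of 47 (7 without control 1, 10 without control 4, 8 without melatonin 3). Those lower numbered 1 with a pseudocount of 1 and 0 to 1 with a library left out (1 without control 2 or control 3).

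Of 397 values of the 24 named transcripts, 388 kept direction and side, and 9 changed sign. Slc7a6os was at 0.004 with limma-voom, 0.009 after quantile normalization and -0.04 to 0.013 with a library left out; Nckap5los was at 0.012 after GC and length removal. With a library left out, Epb41l4aos ran from -0.021 to 0.099 and Myocos from -0.075 to 0.139. The cause was not tested. With the replicate block, 13 transcripts were higher and 1 lower at an unadjusted p of 0.05, and the adjusted calls were 0; 3 of 8 libraries correlated best with their own number. Depth limits the transcripts below 1 FPKM: those named rest on between 15 (Kcnab3os) and 310 (Ift88os) fragments in all 8 libraries together.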

Other observations

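Antisense and long noncoding RNAs that carry other names were listed as 25 genes, 8 of them with a mean of at least 1 FPKM. Dleu2, the host of a microRNA cluster, had 3.44, 2.91, 3.23 and 2.14 FPKM in control and 4.34, 3.45, 3.97 and 3.95 FPKM in melatonin libraries, without overlap (log2 fold change 0.34, SE 0.115, adjusted p = 0.187, limma). Jpx, an RNA of the X inactivation centre, had 2.07 ± 0.237 and 2.68 ± 0.0392 FPKM, also without overlap (adjusted p = 0.15, limma), while Ftx from the same region had 1.96 ± 0.265 and 2.17 ± 0.0854 FPKM with overlap. Dlx1as had 2.005 ± 0.570 and 2.76 ± 0.143 FPKM, with control 1 inside the melatonin range. Rian, an imprinted RNA expressed from the maternal allele, had 8.70 ± 2.81 and 5.999 ± 2.08 FPKM (SD, n = 4; log2 fold change -0.48, adjusted p = 0.347, limma). Airn, Zfas1 and Peg13 overlapped between groups, with log2 fold changes of 0.06, -0.06 and -0.11.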
